A study of Mus musculus with 112 samples.

Results

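Epididymal white adipose tissue of control-fed C57BL/6J mice (written C57BL6/J in the sample labels) was compared with the same depot of 5 other inbred strains on the control diet. The 8 C57BL/6J control arrays were taken by their strain and diet labels from the 112 arrays of the series, and were set against the mean of the control groups of 129S1/SvImJ, BALB/cJ, C3H/HeJ, CBA/J and DBA/2J. Each of these groups held 8 arrays, so the comparison used 48 arrays from 48 mice. The B6C3F1/J hybrid, whose parents are C57BL/6J and C3H/HeJ, was left out of the mean and is given beside single genes.

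All mice were males bought from 1 supplier at 6 weeks of age, housed singly and sampled at 22 weeks after an overnight fast, and RNA of 1 mouse went on each array. The control groups ate a purified AIN93M diet in measured amounts, and BALB/cJ controls were given more food than the controls of the other strains. The other arrays of the series came from mice on calorie restriction (CR) from 8 weeks of age, with 8 mice in each strain, and C57BL/6J and 129S1/SvImJ mice were restricted more deeply than the rest. BALB/cJ mice on CR were given as much food as control mice of other strains. No source used here gives a housing, extraction or scan batch, so a batch that went with a strain cannot be told apart from the strain.

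Inbred mice of 1 strain are near-identical in their genomes, so a gene that differs between strains may carry a DNA difference at or far from the gene, or follow a difference in physiology. White fat stores energy as triacylglycerol and makes new fatty acid from glucose, and it also holds blood vessels, macrophages and, in some depots and strains, adipocytes with features of brown fat, which burn fatty acid in their mitochondria. C57BL/6J is the strain from which the mouse reference genome was read, and the array's probes follow that reference. Base differences under a probe can lower its signal in another strain, and their part in the values below was not tested.

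Values are log2 signals, on which a difference of 1 is a factor of 2, and a level was never compared between probe sets. A gene was called higher or lower where limma's adjusted p was under 0.05 for C57BL/6J minus the mean of the 5 strains. It was called apart where C57BL/6J differed with 1 sign from each of the 5 strains, all 5 adjusted p being under 0.05. These p-values describe the spread between mice of a strain, so they say that C57BL/6J differed from these 5 strains and not from inbred strains at large.

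Adipocyte markers were compared between strains, which cannot by itself show which tissue was taken. Of 9 adipocyte marker genes, 1 was higher, 1 was lower and 7 did not pass the test, and the median difference over the 9 was -0.01. The called share was 22.2% in either direction, beside 25.3% of all genes. Adiponectin (Adipoq), the abundant hormone of adipocytes, had a mean of 12.92 in C57BL/6J, and its difference of 0.08 did not pass (SE 0.04, adjusted p = 0.188). H2-Ea, a class II antigen chain that mice of the H2b haplotype do not make, had means of 5.81 in C57BL/6J and 5.81 in 129S1/SvImJ, against 11.48 to 12.12 in the other strains and 11.85 in the hybrid.

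Some arrays stood apart. DBA/2J control mice 3 and 4 had a mean epididymis marker level of 7.63 and 10.1, while C57BL/6J control mice lay between 4.89 and 5.24. BALB/cJ control mouse 3 had a fatty acid synthesis list mean of 12.1, where the median of its group was 10.6, and DBA/2J control mouse 2 had a brown and beige list mean of 9.64, where the median was 7.70. Without DBA/2J mice 3 and 4, 2093 genes were higher and 2952 lower, and without BALB/cJ mouse 3 the counts were 2136 and 2972.

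Of 19938 genes, 2121 (10.6%) were higher in C57BL/6J than the mean of the 5 strains and 2932 (14.7%) were lower. Counts of list members called on the control diet are to be read beside these shares. Genes apart from each strain were 267 higher (1.34%) and 424 lower (2.13%), 691 in all (3.47%), with a median size of 0.40, and 53 of the 691 differed by more than 1. All 8 C57BL/6J mice lay above all 40 other mice for 50 genes (0.251%) and below them for 54 (0.271%). The split by direction turned with the scaling: 42.0% of calls were higher as deposited and 52.2% after quantile normalization, and among apart genes 38.6% and 53.3%. Left out in turn, 129S1/SvImJ raised the count of higher apart genes to 404 and BALB/cJ raised the lower ones to 701. Each such count has 1 fewer strain to pass, and without CBA/J the counts were 274 higher and 408 lower.

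The 12 largest increases among apart genes were led by Trim12a and Trim30d, of the tripartite motif family, many members of which act in innate immunity. In C57BL/6J control mice Trim12a ran from 6.27 through a median of 7.15 to 7.57, and in the 40 other inbred mice from 3.74 through 4.21 to 4.69. The groups did not overlap, and the difference was 2.90 (SE 0.09, adjusted p = 3.88e-29), a 7.45-fold signal. Trim30d ran from 6.56 through 7.56 to 7.91 against 3.95, 4.55 and 5.15, again with no overlap, and differed by 2.87 (SE 0.11, adjusted p = 3.09e-26). The hybrid mice lay below most of the C57BL/6J mice and above all mice of the 5 strains, with medians of 6.22 for Trim12a and 6.83 for Trim30d. The family's members are close copies of each other, and cross-signal between them was not tested.

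Corneodesmosin (Cdsn), an adhesion protein of cornified skin, ran from 9.90 through 10.39 to 10.60 in C57BL/6J and from 6.74 through 7.95 to 8.87 in the other strains. It differed by 2.52 (SE 0.09, adjusted p = 2.3e-26). Pttg1, which encodes securin, a regulator of sister chromatid separation, had a median of 8.86 in C57BL/6J and 6.63 in the others. Its difference was 2.27 (SE 0.05, adjusted p = 6.03e-34), and the hybrid's 8 mice, at 7.61 to 8.12, fell between the groups. Nxpe4 (1.94), Nlrp1c-ps (1.69), C6 (1.67) and Cyp4f18 (1.54) were also above every other inbred mouse. C6 is a component of the terminal complement complex, and Cyp4f18 inactivates leukotriene B4. Lipf (1.87, gastric lipase), Slc7a8 (1.39, a neutral amino acid transporter), Rnu3a (1.36, a U3 small nucleolar RNA) and Peg10 (1.36, an imprinted gene) were apart by their means, but single mice overlapped.

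**Figure D1:**
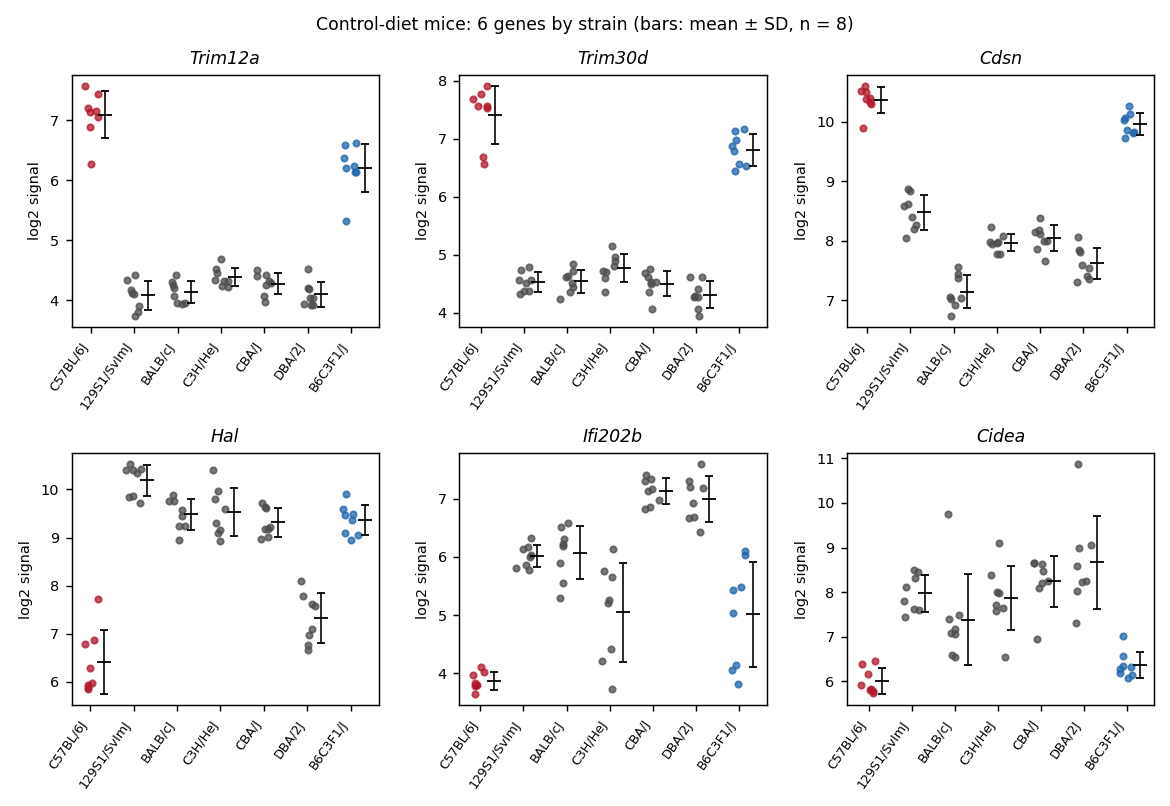
Log2 signal of 6 genes in control-diet mice by strain, 1 point per mouse, with mean ± SD bars (n = 8). C57BL/6J is in red, the 5 other inbred strains in grey and the B6C3F1/J hybrid in blue; for Trim12a, Trim30d and Cdsn all red points lie above all grey points, and for Cidea all lie below.

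The 12 largest decreases among apart genes held 3 genes of the brown and beige list, Cidea, Cox8b and Ppara, given with that list. Hal, histidine ammonia-lyase, which starts the breakdown of histidine, ran from 5.85 through 6.13 to 7.72 in C57BL/6J and from 6.67 through 9.38 to 10.52 in the other strains. It was lower by 2.76 (log2 difference -2.76, SE 0.17, adjusted p = 1.51e-17). DBA/2J, with a mean of 7.32, was the nearest strain, and 34 of the 40 other mice lay above every C57BL/6J mouse. Ifi202b, an interferon-induced DNA-binding protein known to vary between inbred strains, had a mean of 3.87 ± 0.15 (SD, n = 8) and a difference of -2.38 (SE 0.17, adjusted p = 6.21e-16). C3H/HeJ was the next lowest at 5.05, and 39 of the 40 other mice lay above every C57BL/6J mouse.

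Rnase2a, an eosinophil-associated ribonuclease, differed by -2.31 (SE 0.24, adjusted p = 1.91e-10), with strain means from 7.24 in C3H/HeJ to 10.54 in DBA/2J against 6.31. Rbm46, an RNA-binding protein of germ cells, differed by -1.73 and Atp1a4, the sodium pump subunit of sperm, by -1.54, both with no overlap of mice. Ddah1, which breaks down asymmetric dimethylarginine, differed by -1.70, and 35 of 40 other mice lay above every C57BL/6J mouse. Tlr13 (-1.44), a sensor of bacterial ribosomal RNA, and Vsig4 (-1.33), a complement receptor of resident macrophages, were apart although mice overlapped. Fam183b differed by -1.72 (adjusted p = 3.99e-10).

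Among 18 measured genes known to carry inbred strain variants, 4 were higher and 6 lower, a median of -0.08 against 0.01 for all genes. In either direction 55.6% were called, beside 25.3% of all genes. Alad, an enzyme of haem synthesis whose copy number varies between strains, differed by -1.25 (SE 0.06, adjusted p = 1.86e-21), its 8 C57BL/6J values of 10.45 to 10.77 lying below the 40 others at 11.36 to 12.48. Glo1, which detoxifies methylglyoxal and also varies in copy number, differed by -0.90 with no overlap. Nnt, a mitochondrial transhydrogenase with a known deletion in C57BL/6J, had a mean of 8.15 and differed by -0.53 (adjusted p = 7.32e-11). Its difference from CBA/J was -0.09 and did not pass (adjusted p = 0.36), so Nnt was not apart.

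Genes apart from each strain had an apart neighbour in a larger share than other genes. In the gene order of GRCm38, 108 of 690 placed apart genes (15.7%) stood next to another apart measured gene, against 1226 of 19166 other genes (6.4%). The difference ran the same way in such a neighbour for 86 genes and the opposite way for 24. Trim30d and Trim30e-ps1 were both higher (2.87 and 0.76), the mitochondrial chaperonins Hspd1 and Hspe1 both lower (-0.55 and -0.76), and Gbp8, Gbp9 and Gbp4, interferon-inducible guanylate-binding proteins, were higher by 0.51, 0.99 and 1.04. Trim12a and Trim12c went opposite ways (2.90 and -0.57).

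Brown and beige adipocyte genes were lower. Of 12 measured, 7 were lower and the other 5 did not pass, with a median of -0.91. Cidea, a lipid droplet protein of brown fat, ran from 5.74 through 5.87 to 6.46 in C57BL/6J and from 6.54 through 8.06 to 10.87 in the other strains. No mouse overlapped, and the difference was -2.02 (SE 0.27, adjusted p = 1.36e-07). Cox8b, the cytochrome oxidase subunit of heart and brown fat, had a mean of 8.46 and differed by -1.49, with all 40 other mice above. Ppara, the nuclear receptor that turns on fatty acid oxidation, differed by -1.30, and 34 of the 40 lay above every C57BL/6J mouse.

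Ucp1, the uncoupling protein that makes heat in brown fat, ran from 5.32 through 5.62 to 5.85 in C57BL/6J and from 5.24 through 6.80 to 11.62 in the other strains. It differed by -1.38 (SE 0.35, adjusted p = 0.00209). It was not apart, since its difference from BALB/cJ, -0.38, did not pass (adjusted p = 0.643), and 35 of the 40 other mice lay above every C57BL/6J mouse. Elovl3 (-1.20), Cox7a1 (-0.82) and Otop1 (-0.78) were lower than the mean of the strains, and Prdm16, a regulator of brown fat identity, differed by -0.01 and did not pass. The list mean was 6.73 to 7.39 in C57BL/6J mice, median 6.89, with strain medians of 7.51 to 7.94 and a median of 7.16 in the hybrid. A test on linear signals that pooled the 40 other mice, and so brought in the spread between strains, called 2 of the 12 after adjustment. Over all 19938 genes this pooled test called 1477 higher and 1887 lower. Its list counts, here and below, take both directions together and are to be read beside those totals. Whole tissue cannot tell fewer cells of a type from less RNA per cell.

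Fatty acid synthesis genes were lower than the mean of the strains, with a list mean of 10.02 ± 0.164 (SD, n = 8) in C57BL/6J beside 10.03 ± 0.0723 (SD, n = 8) in 129S1/SvImJ. Of 19 measured, 13 were lower and the other 6 did not pass, with a median of -0.47. Elovl6, which elongates palmitate to stearate, ran from 8.26 through 8.74 to 9.41 in C57BL/6J and from 8.50 through 10.67 to 13.23 in the other strains. The difference was -1.95 (SE 0.31, adjusted p = 3.91e-06), and 29 of the 40 others lay above every C57BL/6J mouse. Against 129S1/SvImJ alone the difference was -0.13 (adjusted p = 0.872), and against CBA/J it was -3.04.

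Acly, ATP citrate lyase, which supplies acetyl-CoA for the pathway, had a mean of 9.29 and differed by -1.05 (SE 0.26, adjusted p = 0.0021). Fatty acid synthase (Fasn) differed by -0.61, acetyl-CoA carboxylase (Acaca) by -0.69, and the desaturases Fads2 and Fads1 by -0.65 and -0.46. Scd1, the main stearoyl-CoA desaturase of fat, differed by -0.04 and did not pass (adjusted p = 0.263), at a mean of 13.65 in C57BL/6J. Without C57BL/6J control mouse 1, 8 of 19 were called lower, and the pooled test called 3 after adjustment. Me1, malic enzyme, differed by -0.47 and lost its call without that mouse (adjusted p = 0.0572). It also lost it without CBA/J (-0.34, adjusted p = 0.157) and with the hybrid in the mean (adjusted p = 0.0567). The same held without C57BL/6J control mouse 3, 4 or 6 (adjusted p = 0.0598, 0.0513 and 0.0555). Without BALB/cJ control mouse 3, whose strain was fed more, Elovl6 differed by -1.88 and Acly by -0.96, and 13 members were lower.

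For fatty acid beta-oxidation, 12 of 17 were lower and 2 higher, with a median of -0.28. Etfb, which passes electrons from acyl-CoA dehydrogenases, differed by -0.41 (adjusted p = 5.55e-08), Acaa2, the last enzyme of the cycle, by -0.57 and Hadha, of the trifunctional protein, by -0.53. Eci1, an enoyl-CoA isomerase, was higher by 0.43 and Acadl, the long-chain acyl-CoA dehydrogenase, by 0.28, and 1 of the 17 was higher without C3H/HeJ. The count of lower members fell to 8 after quantile normalization and to 9 without BALB/cJ. The pooled test called 9 of the 17 after adjustment.

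For pyruvate dehydrogenase and the citric acid cycle, 17 of 25 were lower and the other 8 did not pass, with a median of -0.21. Dld, a subunit shared by the oxoacid dehydrogenases, differed by -0.52 and Sdhc, of succinate dehydrogenase, by -0.25. The count fell to 11 without C57BL/6J control mouse 1, to 11 after quantile normalization and to 10 with the hybrid added to the mean, and the pooled test called 8 after adjustment. In respiratory complex I, 10 of 33 were lower and 4 higher (2 higher without 129S1/SvImJ), and 9 were called by the pooled test. The higher count is to be read beside the 10.6% of all genes called higher, and the lower count beside 14.7%. In complexes III and IV and ATP synthase, 12 of 33 were lower and the other 21 did not pass. Among 19 cholesterol synthesis genes 8 were lower, led by Nsdhl at -0.97 (adjusted p = 6.47e-07), a sterol dehydrogenase, and the pooled test called 2 of the 19.

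**Figure D2:**
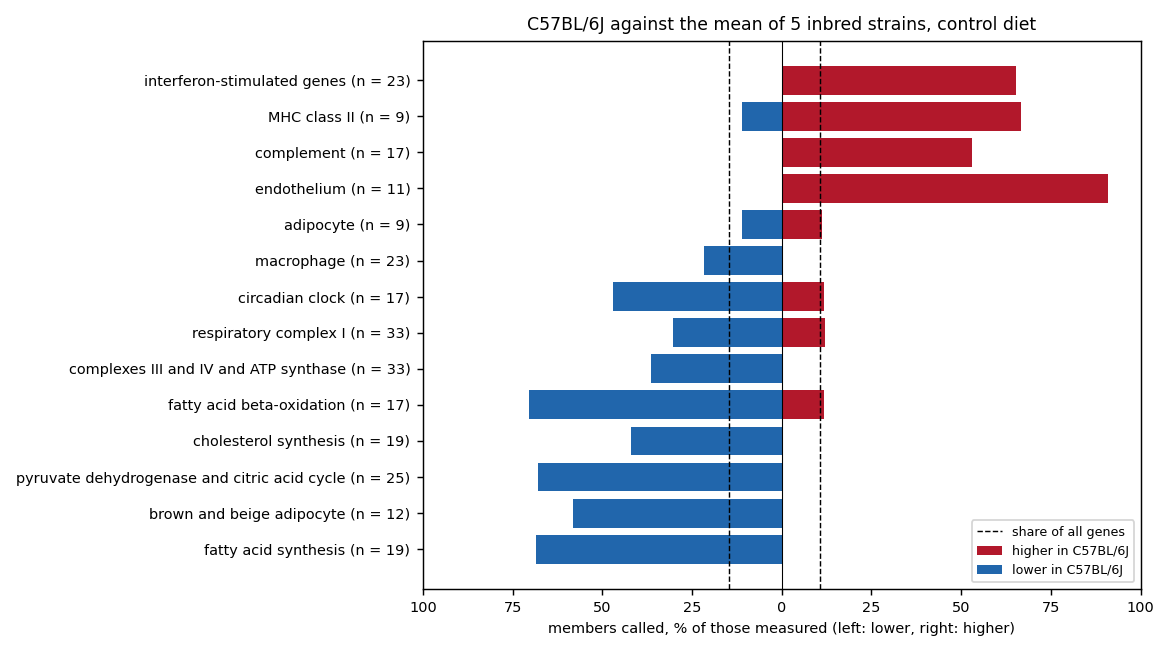
Members called higher (right, red) or lower (left, blue) in C57BL/6J, as a percent of the members measured, for 14 gene lists; dashed lines mark the 10.6% and 14.7% of all genes called. Fatty acid synthesis, brown and beige, beta-oxidation and citric acid cycle genes lie left of the lines, and interferon-stimulated, MHC class II, complement and endothelium genes lie right of them.

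Interferon-stimulated genes, which infected or alerted cells switch on through STAT and IRF factors, were higher. Of 23 measured, 15 were higher and the other 8 did not pass, with a median of 0.26. Rsad2 (viperin), which stops viral replication by making an altered nucleotide, ran from 7.56 through 7.96 to 8.43 in C57BL/6J and from 6.55 through 7.25 to 8.14 in the other strains. It was apart, with a difference of 0.79 (SE 0.09, adjusted p = 1.59e-09), and 32 of 40 mice lay below every C57BL/6J mouse. Iigp1, an immunity-related GTPase, was apart at 0.98 (adjusted p = 5.02e-06).

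Gbp3 (0.63), Oasl2 (0.50), Ifit1 (0.48), Irgm1 (0.45), Zbp1 (0.36) and Mx1 (0.29) were higher than the mean of the strains. The difference of Oasl2 from C3H/HeJ was -0.05 and did not pass (adjusted p = 0.796). The list mean ran from 7.66 to 8.03 in C57BL/6J, median 7.97, and C3H/HeJ was nearest at a median of 7.79, while 129S1/SvImJ was lowest at 7.41. Without 129S1/SvImJ, 12 members were higher.

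Promoter windows were searched for motifs, and the windows printed below were picked because they held a match. Motifs sought for the clock genes are given with those genes. In RefSeq's GRCm38.p6 sequence, the C57BL/6J reference, the interferon-response motif GAAANNGAAA was sought on both strands in the 250 bases before and 50 bases after each gene's start. It was found for 607 of 15614 measured genes (3.89%) and for 10 of 15 listed interferon-stimulated genes with a window (66.7%). Among apart genes it was in 16 of 199 higher (8.04%) and 16 of 346 lower ones (4.62%). Rsad2, Gbp3, Ifit1 and Irgm1 held it, Oasl2 did not, and Iigp1, Zbp1 and Mx1 had no window listed. A match is a description of letters and not a site shown to be bound. Below, capitals mark the motif, which on the printed strand reads as its reverse complement, and each sequence runs 5' to 3' along its gene. The first 3 are the 150 bases before the gene start and the last is the first 30 bases of the gene. Trim30d lies at chr7:104507850-104507999 on the minus strand, Rsad2 at chr12:26456453-26456602 on the minus strand, Gbp3 at chr3:142559894-142560043 on the plus strand and Trim12a at chr7:104315466-104315495 on the minus strand.
Trim30d: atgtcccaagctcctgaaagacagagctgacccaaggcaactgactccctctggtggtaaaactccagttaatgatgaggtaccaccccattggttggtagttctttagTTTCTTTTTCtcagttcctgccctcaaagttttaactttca
Rsad2: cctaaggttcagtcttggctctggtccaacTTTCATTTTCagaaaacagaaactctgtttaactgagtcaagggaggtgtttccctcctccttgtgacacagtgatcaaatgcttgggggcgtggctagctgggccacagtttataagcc
Gbp3: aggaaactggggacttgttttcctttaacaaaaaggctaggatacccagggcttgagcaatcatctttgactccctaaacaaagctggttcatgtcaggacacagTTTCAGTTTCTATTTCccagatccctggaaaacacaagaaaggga
Trim12a: agagttgtggTTTCTGTTTCatttccagag
The match began 41 bases before the start of Trim30d, 120 before that of Rsad2 and at base 11 of Trim12a. Gbp3 had 2 overlapping matches, beginning 45 and 39 bases before its start.

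Antigen presentation and complement genes were higher as well. Of 9 MHC class II genes, 6 were higher and H2-Ea was lower by 4.81 (log2 difference -4.81). Without BALB/cJ, 4 were higher. H2-Ab1, the beta chain of the A molecule, ran from 11.03 through 11.62 to 11.89 against 8.68, 10.34 and 11.53, and differed by 1.27 (SE 0.13, adjusted p = 1.02e-10). Its difference from 129S1/SvImJ, 0.42, did not pass (adjusted p = 0.0689). H2-Ob, of the O molecule that restrains peptide loading, was apart at 0.61. These are the most polymorphic genes of the genome, and probe mismatch between haplotypes was not tested.

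Of 17 complement genes 9 were higher and the other 8 did not pass, with a median of 0.33. C6 ran from 8.43 through 8.72 to 8.91 against 6.19, 7.12 and 7.86, with no overlap and a difference of 1.67 (SE 0.13, adjusted p = 1.66e-14). C4b, cleaved in the classical pathway, was apart at 1.09, and C4a (0.54), a near copy of it, C1s1 (0.53), Cfp (0.54, properdin) and Cfb (0.50) were higher.

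Endothelial markers were higher too, by less. Of 11 measured, 10 were higher and Esam did not pass, with a median of 0.23. Egfl7, secreted by endothelium, was apart at 0.40 (SE 0.07, adjusted p = 3.17e-05), Flt1, a VEGF receptor, differed by 0.28, and Cdh5, the cadherin of endothelial junctions, by 0.23. The list mean was 9.86 to 10.1 in C57BL/6J, median 9.98, and strain medians ran from 9.60 in CBA/J to 9.86 in C3H/HeJ, so the mice overlapped. Without CBA/J, 6 of the 11 were called, and 6 when all 112 arrays shared 1 fit. Part of the interferon, class II and complement genes are expressed by endothelial cells, and the part of the endothelial difference in theirs was not tested.

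**Figure D3:**
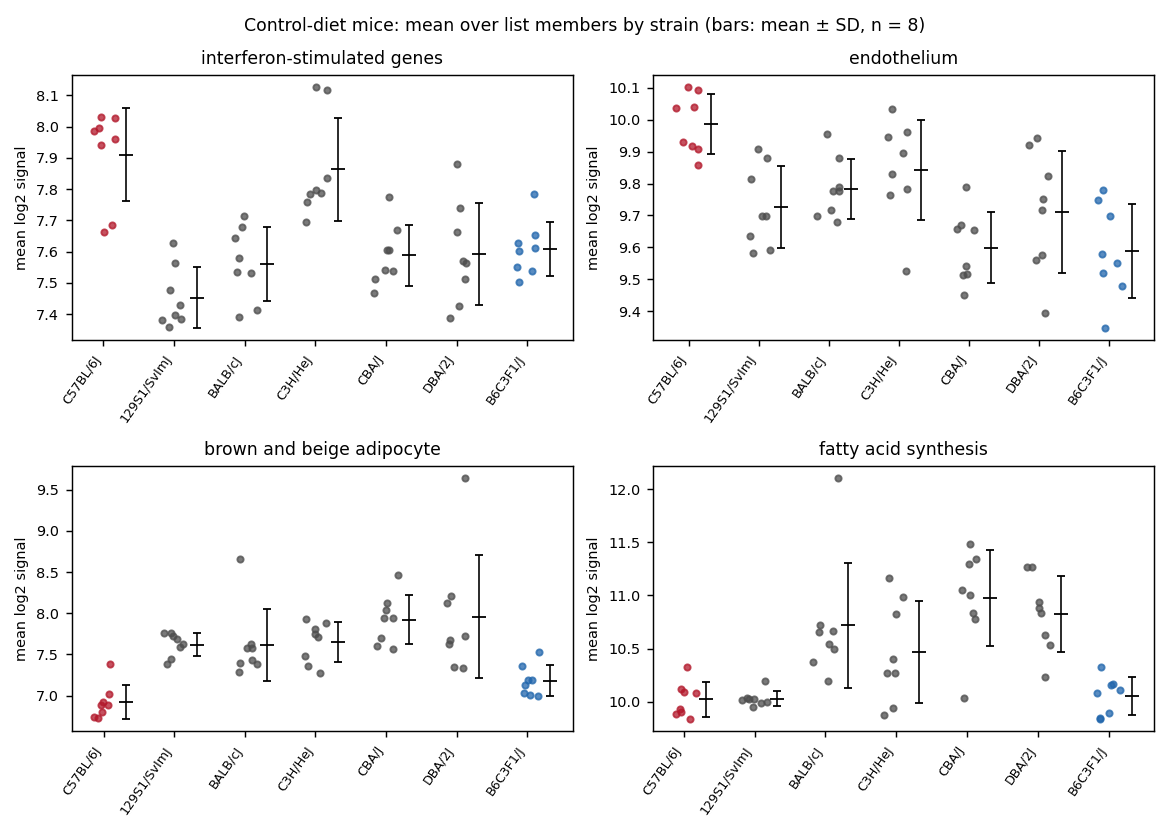
Mean log2 signal over the measured members of 4 gene lists in control-diet mice by strain, 1 point per mouse, with mean ± SD bars (n = 8). C57BL/6J (red) lies lowest for brown and beige genes at a median of 6.89, at a mean of 10.02 beside 10.03 in 129S1/SvImJ for fatty acid synthesis, and highest by its median for interferon-stimulated and endothelium genes.

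Of 23 macrophage markers, 5 were lower and the other 18 did not pass, with a median of -0.11, a count to be read beside the 14.7% of all genes called lower. Trem2, a lipid receptor of macrophages in fat, had a mean of 8.00 and differed by -1.25 (SE 0.17, adjusted p = 1e-07), and Itgax (CD11c) differed by -0.90 (adjusted p = 0.00104). Neither passed against BALB/cJ, with differences of -0.15 for Trem2 and 0.38 for Itgax. The general markers Adgre1 (-0.07) and Csf1r (0.08) did not pass. The number lower was 2 without CBA/J, 3 without C3H/HeJ, 3 without C57BL/6J control mouse 1 or mouse 7, and 10 with the hybrid in the mean, and the pooled test called 1 of the 23.

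Among other cell types, limma called none of 9 B cell, 8 neutrophil, 10 mesothelium, 15 epididymis, 8 seminal vesicle and prostate or 8 testis germ cell markers. At an unadjusted p under 0.05 it gave 0, 2, 3, 0, 0 and 1 of them, and the pooled test gave 0, 0, 4, 0, 0 and 1. Ccr2 (0.79), the receptor that draws monocytes into tissue, and Cxcl10 (0.78), an interferon-induced chemokine, were higher.

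Of 17 measured circadian clock genes, 2 were higher and 8 lower, with a median of -0.19. Over all genes 10.6% were called higher and 14.7% lower. Arntl, which with Clock turns on the other clock genes, ran from 6.97 through 7.79 to 8.73 in C57BL/6J and from 6.24 through 6.83 to 8.08 in the other strains. Its difference was 0.93 (SE 0.14, adjusted p = 1.03e-06), and against 129S1/SvImJ it was 0.36 (adjusted p = 0.161). Dbp, an output transcription factor, differed by -0.67, its relative Hlf by -0.45, and the repressors Bhlhe41 and Ciart by -0.69 and -0.65. Nr1d1, which represses Arntl, was higher by 0.34, and Clock differed by 0.04. Without BALB/cJ, 1 was higher and 6 lower, and the pooled test called 6 of the 17. In the promoter windows, the motif CACGTG was found for 1483 of 15614 measured genes and for 5 of 15 clock genes with a window. Among the called clock genes with a window, 2 of 8 held it. The motif TTATGNAA was found for 562 of the 15614 genes, for 2 of the 15 clock genes and for 0 of the 8 called ones. The hour at which each strain was sampled is not given in the sources used here, and its part was not tested.

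Among 14 adipokine genes 5 were higher and 3 lower, and the pooled test called 4. By limma 57.1% were called in either direction, beside 25.3% of all genes. Retnla, a resistin-like protein of alternatively activated macrophages, was apart at 0.94 (SE 0.13, adjusted p = 1.99e-07). Lcn2, lipocalin 2, differed by -1.43 (adjusted p = 3.84e-05), and 33 of 40 other mice lay above every C57BL/6J mouse. Leptin (Lep) had a mean of 11.80 ± 0.24 (SD, n = 8) and differed by 0.15 (adjusted p = 0.348). Resistin (Retn) differed by 0.13 (adjusted p = 0.0189), a call lost without DBA/2J (adjusted p = 0.127) and without C57BL/6J control mouse 1 (adjusted p = 0.0558). Sfrp5, a secreted Wnt inhibitor, differed by 0.38 and did not pass (adjusted p = 0.261). Of 16 imprinted genes 4 were higher and 1 lower, or 31.2% called in either direction beside 25.3% of all genes. Peg3 and Zim1 were higher by 0.89 and 0.77, and Igf2, a growth factor, differed by 0.09 and did not pass.

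The CR arrays, from other mice of the same strains, gave a second measurement. On CR, 1519 genes were higher in C57BL/6J than the mean of the 5 strains (7.62%) and 1680 lower (8.43%), and higher calls made up 47.5% as deposited and 57.8% with each array centred on its median. With array weights the counts were 3029 and 3457. Of the 5053 genes called on the control diet, 1781 had the same sign and were called on CR (35.2%), and 45 were called with the opposite sign. Of the 691 genes apart on the control diet, 655 had the same sign on CR (94.8% of the 691), and 438 had the same sign and were called (63.4% of the 691). The other 36 had the opposite sign, and limma called none of them, with 1 at an unadjusted p under 0.05. C57BL/6J CR mice 2 and 3 had epididymis marker means of 11.8 and 7.68. Without the arrays with raised epididymis markers, 450 were called with the same sign (65.1%) and 1 with the opposite.

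Trim12a differed by 3.00 on CR (adjusted p = 4.18e-32), Trim30d by 2.63, Cdsn by 2.54 and Pttg1 by 2.20. Hal differed by -2.52, Ifi202b by -2.20 and Cidea by -1.70. Ucp1 differed by -2.01 and Elovl3 by -2.83, and 8 of 12 brown and beige genes were lower. Of the fatty acid synthesis genes 3 of 19 were lower on CR, and Elovl6 differed by -0.35 (adjusted p = 0.389). Complement genes were higher in 5 of 17 and interferon-stimulated genes in 5 of 23, or 8 and 7 without the arrays with epididymis markers. Endothelium markers were higher in 1 of 11 and lower in 1, or higher in 6 without those arrays.

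**Figure D4:**
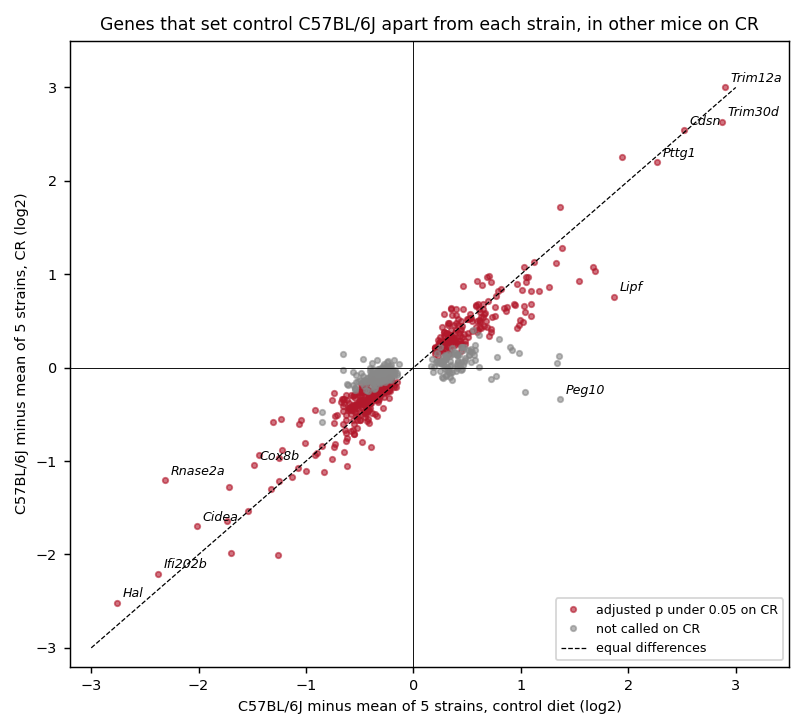
C57BL/6J minus the mean of 5 strains for the 691 genes apart on the control diet, on that diet (horizontal, log2) and in other mice on CR (vertical, log2), 1 point per gene; the dashed line marks equal differences. Red points were called on CR, and Peg10 stands out at 1.36 on control diet and -0.34 on CR.

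The difference itself was tested between diets. Since the depth of restriction differed between strains, a change in the difference cannot be told apart from the depth of restriction. It was more positive on CR for 496 genes (2.49%) and more negative for 325 (1.63%), a split of 60.4% that was 47.0% after quantile normalization. With array weights the counts were 1396 and 810. Without the 20 of 96 arrays that stood apart the counts were 299 and 115, and without only the 8 arrays with raised epididymis markers they were 795 and 382. Peg10 ran from 9.45 to 10.84 in control C57BL/6J mice and from 7.68 to 9.22 in CR mice, and its difference changed by -1.70 (SE 0.21, adjusted p = 5.47e-08). Serpina3b, a serine protease inhibitor gene of a cluster of close copies, changed by -1.23, Prss55 by -0.85 and Pla2g2e, a secreted phospholipase, by -0.80.

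Prodh, the first enzyme of proline breakdown, changed by 0.80 (adjusted p = 3.99e-05), Riok2, a kinase of ribosome assembly, by 0.61, Hlf by 0.56 and Llph by 0.48. These 8 genes kept an adjusted p under 0.05 without the arrays with epididymis markers. Elovl6 changed by 1.60 (SE 0.415, adjusted p = 0.0141, or 0.0315 without those arrays): its C57BL/6J median was 8.74 on the control diet and 12.04 on CR. Among clock genes 4 of 17 became more positive and 1 more negative, and Ppara changed by 0.72 (adjusted p = 0.00946).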

How the data were processed

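Epididymal fat of 112 male mice was profiled on Affymetrix Mouse Gene 1.0 ST arrays. Per the paper's methods, the authors made the deposited log2 signals by RMA-Sketch at the gene level, run in Expression Console (version not given in the sources used here), which removes background, equalises the arrays' distributions and combines the probes of a set. Which arrays were normalized together is not given in the sources used here. Array medians of the 48 control arrays of inbred strains were 6.74 to 6.86, and precision is limited by how many arrays there are. Of 35556 probe sets, 21789 with 1 gene symbol gave 19938 genes, and the brightest probe set was used for the 999 genes with several.

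Groups came from the labels. limma (3.58.1, R 4.3.3) was fitted to 48 arrays in 6 groups, with Benjamini-Hochberg adjusted p under 0.05, to 48 CR arrays, and to 96 arrays for the change between diets. Each array is a separate, singly housed mouse, and p-values measure the spread between mice of a group. On data simulated for the control comparison over 19938 genes, with 100 genes changed by 0.5 and 100 by 1, the test called 92% and 100% of them. The rule for apart genes called 72% and 98%. Unlike the data, the simulation had normal noise, no difference among the other strains and no arrays that stood apart. The 48 gene lists, the comparison and the members named were chosen with earlier results of these data known. Genes named are the 12 largest increases and 12 largest decreases among apart genes, up to 6 members of each list by p, adipokine, strain variant and lipogenic genes, and the 4 smallest p in each direction for the diet difference; other members of the lists, neighbours in gene order and genes of the promoter search were named after their values were seen. A Student t-test on linear signals, the kind of test the study used between diets within a strain, was applied here between strains, C57BL/6J against the 40 others pooled; this comparison and its Benjamini-Hochberg adjustment are not the study's. Alternatives varied normalization, centring, array weights, variance model, dim genes, probe set choice, arrays, strains and the replicate block; leaving out only arrays with epididymis markers, BALB/cJ mouse 3 or CBA/J mouse 2 was chosen after seeing the data. Promoters came from RefSeq's table for GRCm38.p6. Figures were drawn with matplotlib 3.10.9.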

Additional observations from a re-analysis of the deposited data

Results flagged for a closer look

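In 39 genes of the report and 6 control groups of 8 mice, 31 of 234 gene and group pairs (13.2%) held 1 mouse whose gap to the next, divided by the range of the group, passed Dixon's 95% critical value. Chance alone passes about 1 in 20. The ratios are given in parentheses with the side of the mouse. In BALB/cJ, mouse 3 was extreme for Lipf (highest, 0.664), Peg10 (highest, 0.53), Cidea (highest, 0.709), Cox8b (highest, 0.597), Elovl6 (highest, 0.589), Slc2a5 (highest, 0.903), Me1 (highest, 0.639), Glo1 (highest, 0.693), Adipoq (lowest, 0.57), Sfrp5 (lowest, 0.772), Acly (highest, 0.736). In CBA/J, mouse 2 was extreme for Slc7a8 (highest, 0.602), Cidea (lowest, 0.669), Tlr13 (highest, 0.676), Elovl6 (lowest, 0.697), Fasn (lowest, 0.763), Me1 (lowest, 0.597), Retn (lowest, 0.745).

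Among C57BL/6J control mice the extremes were Cdsn in mouse 1 (lowest, 0.58), Rbm46 in mouse 1 (lowest, 0.55), Fam183b in mouse 8 (highest, 0.748), Ppara in mouse 2 (highest, 0.568), Fasn in mouse 3 (lowest, 0.561), Nnt in mouse 7 (highest, 0.702), Acly in mouse 5 (highest, 0.755). In the other strains they were Nxpe4 in DBA/2J mouse 3 (highest, 0.758), Lipf in C3H/HeJ mouse 4 (highest, 0.588), Slc7a8 in DBA/2J mouse 4 (highest, 0.614), Ppara in 129S1/SvImJ mouse 6 (lowest, 0.749), H2-Ea in 129S1/SvImJ mouse 6 (lowest, 0.568), Mx1 in CBA/J mouse 4 (highest, 0.568).

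The C57BL/6J difference changed between diets for 496 genes upward and 325 downward. Of 46 genes checked by name, 15 passed. The change, CR minus control in log2, was positive for Rnase2a (1.11), Ppara (0.72), Elovl6 (1.60), Hlf (0.56), Alad (0.28), Riok2 (0.61), Llph (0.48), Prodh (0.80). It was negative for Lipf (-1.11), Nlrp1c-ps (-0.66), Cyp4f18 (-0.61), Peg10 (-1.70), Serpina3b (-1.23), Prss55 (-0.85), Pla2g2e (-0.80). Rnase2a and Alad did not pass without the arrays with raised epididymis markers (adjusted p = 0.06 and 0.0794).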

How the results depend on the processing

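The counts of genes higher and lower on the control diet stayed within 1.5 times under each alternative, except the lower count in the pooled Student t-test with Benjamini-Hochberg adjustment, which called 1477 higher and 1887 lower. That test called 12 of 23 interferon-stimulated, 7 of 17 complement and 8 of 11 endothelium genes. Its calls against limma's fell by more than 1.5 times for the lists given with it in the report, and for glycolysis (2 against 7), pentose phosphate (1 against 4), proteasome (6 against 11), heat shock (4 against 8), antioxidant (6 against 11), cytosolic ribosome (3 against 5), imprinted (3 against 5), inflammatory (3 against 6), adipocyte transcription factor (1 against 5) and fatty acid uptake genes (1 against 3). The same held for T cell (1 against 2), NK cell (1 against 3) and adipocyte markers (1 against 2). It made no adjusted call for glucocorticoid targets, mast cell, smooth muscle and red blood cell markers, where limma called 3, 1, 2 and 1, and at an unadjusted p under 0.05 it gave 3, 0, 0 and 1. Leaving out each C57BL/6J control mouse, BALB/cJ mouse 3 or CBA/J mouse 2 gave 1802 to 2136 higher and 2527 to 2972 lower genes, and 229 to 269 higher and 320 to 452 lower apart genes. Apart genes moved to 404 higher without 129S1/SvImJ and to 701 lower without BALB/cJ. Array weights moved the CR counts to 3029 and 3457 and the diet difference to 1396 and 810. The diet difference gave 299 and 115 without arrays that stand apart, and 795 more positive without those with epididymis markers.

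Replicate numbers are shared between strains but the mice are different. Same-numbered control mice correlated at a median of 0.0763 after centring each group (120 pairs, -0.402 to 0.577), and 12 of 48 correlated best with their own number. With the replicate block, 2422 genes were higher and 3134 lower, 302 and 497 apart, 1570 and 1767 on CR, and 677 and 459 for the diet difference. Of 214 named genes called on the control diet, 44 lost the call under at least 1 of 25 alternatives, and none reversed. The pooled Student t-test was not among these 25. Signal near background, for which no detection call was used, limits the fold of dim genes such as Trim12a in the other strains.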

Other observations

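Shares below are to be read beside the 10.6% of all genes called higher and the 14.7% called lower. Of 16 genes of glucose uptake and glycolysis 7 were lower and the other 9 did not pass, with a median of -0.19, led by the glycolytic enzymes Aldoa (-0.44, adjusted p = 2.23e-07) and Ldha (-0.33). Of 8 pentose phosphate and NADPH genes 4 were lower and the other 4 did not pass. Among 27 proteasome genes 10 were lower and 1 higher, a median of -0.15, and the subunits Psmb3 (-0.51), Psmb5 (-0.41) and Psmd14 (-0.43) were apart. Of 18 heat shock and unfolded protein response genes 8 were lower and the other 10 did not pass, and the chaperone Hsp90aa1 was apart at -0.42. Of 15 genes of lipolysis and the lipid droplet 6 were lower and 3 higher, and Mgll, monoacylglycerol lipase, was apart at -0.34 and Plin5, a droplet coat protein, at -0.62.

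Of 14 MHC class I and immunoproteasome genes 6 were higher, with Tap1, a peptide transporter, apart at 0.47. Of 19 inflammatory cytokine and adhesion genes 6 were higher, of 9 NK cell markers 3, of 9 T cell markers 2 and of 8 mast cell markers 1, and the others did not pass. For all genes the share called higher was 10.6%, near that of the mast cell markers. Of 5 Ifi200 family genes 2 were higher and 1, Ifi202b, lower.

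In the remaining lists, higher and lower counts were 6 and 3 of 21 for collagens and matrix, 1 and 5 of 14 for triacylglycerol synthesis, 2 and 2 of 9 for lipolytic receptors and cAMP, 1 and 2 of 11 for fatty acid uptake, and 2 and 5 of 19 for branched-chain amino acid breakdown. They were 3 and 2 of 15 for adipocyte transcription factors, 2 and 1 of 11 for glucocorticoid targets, 3 and 8 of 26 for antioxidant enzymes, and 3 and 2 of 14 for the cytosolic ribosome. Of 16 cell cycle genes 1 was lower and of 8 smooth muscle markers 2 were lower, and 1 was higher of 8 adipose fibroblast, 9 skeletal muscle and 2 red blood cell markers each.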
